A study of Rattus norvegicus with 26 samples.

Results

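The comparison set rat liver 36 h after removal of 2/3 of the organ (2/3 partial hepatectomy, 2/3 PH) against normal liver. It used the 3 arrays titled 2/3PH 36H and the 3 arrays titled normal, and kept a miRNA if the scanner software marked it as detected on all arrays of either group. This rule took 135 of the 677 miRNAs on the array. Of the 135, 119 were detected on all 6 arrays, 8 on all 3 arrays at 36 h but not all 3 normal ones, and 8 on all 3 normal arrays but not all 3 at 36 h.

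The series follows livers of male Sprague-Dawley rats after loss of a smaller or a larger share of the organ, with 26 arrays in 9 groups. Right lobes, which regrow after the operation, were collected 36 h after 2/3 PH, and the same lobes of rats without PH served as normal liver. In the records, the protocol entry for these control rats says sham, and the source entries of the operated livers say 36 h for m37B, 37 h for m39B and 38 h for m40, while every title says 36. Each array held the RNA of 1 rat. Rats 24 h after 2/3 PH and 36 h after 1/3 PH, in which only the left lateral lobe was removed, are used below for tests of time and of the operation, with 3 arrays each.

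miRNAs are short RNAs that lower the output of messenger RNAs which pair with them, mostly through the seed near the 5′ end. Liver cells, quiescent in the intact organ, enter the cell cycle after a large resection, and several miRNA families are known to act on that step. The miR-17 and miR-106b clusters are induced with E2F and MYC activity and favour the passage from G1 to S, while miR-34a, induced by p53, and the miR-15/16 and miR-26 families restrain cyclins and cyclin-dependent kinases.

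The sequences below are those of miRNAs that rose or fell and of members with the same seed (bases 2 to 8, in capitals), since miRNAs with 1 seed can pair with the same sites. They come from RefSeq (build GRCr8), written 5′ to 3′. Array names were matched to the current name of the arm, and 22 of the 27 miRNAs that passed the test had a match. The names are of an older version and their arms were assigned by hand, without probe sequences to check them. The seed AAAGUGC is shared by miR-93, miR-17-5p and miR-106b, which all rose, and by miR-20a and miR-20b-5p.
miR-93-5p: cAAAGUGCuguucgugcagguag
miR-17-5p: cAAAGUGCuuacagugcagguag
miR-106b-5p: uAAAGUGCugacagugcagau
miR-20a-5p: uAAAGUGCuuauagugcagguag
miR-20b-5p: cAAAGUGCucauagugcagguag
In the same clusters, miR-18a has a seed of its own among the members, and miR-25 shares its seed with miR-92a.
miR-18a-5p: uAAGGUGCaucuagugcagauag
miR-25-3p: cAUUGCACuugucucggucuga
miR-92a-3p: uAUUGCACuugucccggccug
The seed AGCAGCA is shared by miR-15b, which rose, by miR-195, which fell, and by miR-16, miR-497 and miR-322.
miR-15b-5p: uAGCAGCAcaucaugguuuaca
miR-195-5p: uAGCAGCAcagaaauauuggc
miR-16-5p: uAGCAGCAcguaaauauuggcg
miR-497-5p: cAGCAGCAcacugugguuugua
miR-322-5p: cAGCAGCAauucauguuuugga
Some of the other miRNAs that rose or fell follow, with miR-26b, which has the seed of miR-26a.
miR-34a-5p: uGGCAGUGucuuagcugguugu
miR-21-5p: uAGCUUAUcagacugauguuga
miR-26a-5p: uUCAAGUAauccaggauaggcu
miR-26b-5p: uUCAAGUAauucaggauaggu
miR-10a-5p: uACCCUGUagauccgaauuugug
miR-378a-3p: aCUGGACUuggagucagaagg
miR-378a-5p: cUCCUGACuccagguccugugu

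Of the 144 miRNAs tested in 1 limma fit of all 26 arrays, 16 were higher (11.1%) and 11 lower (7.64%) at 36 h after 2/3 PH than in normal liver at an adjusted p under 0.05, all of them members. Of these, 14 higher and 10 lower were detected on all 6 arrays, while miR-18a and miR-429 were members only through the arrays at 36 h and miR-338 only through normal liver, in each case the group with the higher signal. The median log2 difference over the 144 was 0.06, and 49 had an unadjusted p under 0.05. In bulk tissue, fewer cells of a type and less RNA per cell cannot be told apart. Values are scaled signals, that is, multiples of the array's own 75th percentile over 109 well measured probes. They compare arrays for 1 miRNA and not the levels of different miRNAs. All 3 arrays at 36 h lay above all 3 normal arrays for 38 of the 144 miRNAs (26.4%) and below them for 25 (17.4%). Each of the 27 that passed the test was among these.

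The calls depended on the scaling between arrays. Without scaling limma called 1 higher and 0 lower (16 with an unadjusted p under 0.05), and with the percentile taken over all probes 0 and 0 (15 with an unadjusted p under 0.05). Here every difference moved by the same amount, -0.16 and -0.09, while the median SE was 0.41 and 0.51 against 0.23. Unscaled, miR-34a was at 1.69, miR-15b at 1.18, miR-93 at 0.99 and miR-378* at -1.18, and none of these passed. The 1 call without scaling was that of miR-18a. It is a member only through the arrays at 36 h, where it was higher, so its test is not independent of its choice. Quantile normalization gave 14 higher and 16 lower (46.7% higher, against 59.3% with the main scaling), and the deposited log2 values 5 and 10 (33.3% higher). Normexp background correction gave 2 higher and 1 lower, and moved the median of the 144 to 0.64.

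With the deposited values several dim miRNAs had much larger differences, and most of these lost their call. miR-378* was at -2.91 (adjusted p 0.0684), against -1.03 with the main scaling, miR-429 at 3.32 (adjusted p 0.195), against 1.28, miR-181a at -1.60 (adjusted p 0.384), against -0.72, miR-200a at 2.07 (adjusted p 0.438), against 0.90, and miR-150 at -1.15 (adjusted p 0.547), against -0.74. miR-511* (-1.06, adjusted p 0.000931) kept its call. miR-18a and miR-338 also passed, but their tests are not independent of their choice. No size is given for them here, since miR-338 was detected on no array at 36 h and miR-18a not on normal array 1. The cause was not tested.

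**Figure D1:**
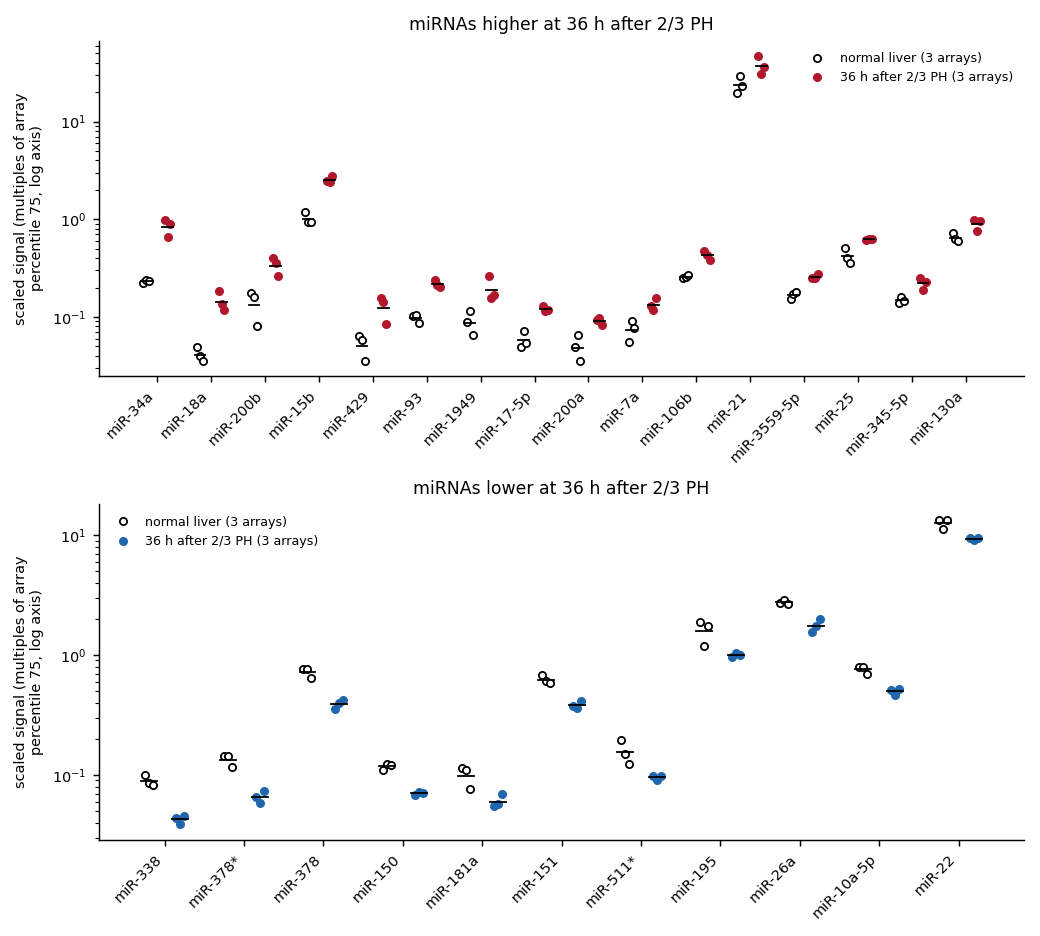
Scaled signal (multiples of the array's 75th percentile over the reference probes, log axis) of the 16 miRNAs that rose and the 11 that fell, with 1 point per array (open, normal liver; filled, 36 h after 2/3 PH) and bars at the geometric means. The groups do not overlap for any of the 27, from miR-34a (0.222 to 0.239 in normal liver, 0.663 to 0.979 at 36 h) to miR-22 (11.2 to 13.5, 9.16 to 9.50).

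The miR-106b cluster, which also holds miR-93 and miR-25 and is transcribed from an intron of the replication gene Mcm7, rose in all 3 of its members. miR-93 had scaled signals of 0.103, 0.105 and 0.0872 in normal liver and 0.239, 0.211 and 0.204 at 36 h (m37B, m39B and m40, in this order throughout). Its log2 difference was 1.15 ± 0.13 (SE), a 2.21-fold rise with an adjusted p of 2.10e-06. miR-106b, with the same seed, read 0.248, 0.255 and 0.266 in normal liver and 0.468, 0.434 and 0.385 at 36 h. The lowest operated liver (m40) was still well above the highest normal one, and the difference was 0.74 ± 0.15 (1.67-fold, adjusted p 0.00180). miR-25, which has another seed, read 0.503, 0.403 and 0.359 in normal liver against 0.614, 0.629 and 0.624 at 36 h. Normal liver 1 was the highest of the normal arrays, and the difference was 0.58 ± 0.16 (1.49-fold, adjusted p 0.0114). The median of the 3 was 0.74, against 0.06 over all miRNAs tested. This list, like the other lists of families and clusters, was chosen with earlier results of these data known. The medians set side by side are therefore not independent of that choice. With the deposited values none of the 3 passed, with differences of 1.05 for miR-93 (adjusted p 0.622), 0.58 for miR-106b (adjusted p 0.0754) and 0.51 for miR-25 (adjusted p 0.0603).

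The related clusters of miR-17 and miR-106a had 7 members, of which 2 rose and 5 did not pass the test. Over the 144 miRNAs tested 11.1% were higher, and whether the clusters differ from that share was not tested. miR-18a was near the lower limit of measurement in normal liver, with 0.0494, 0.0394 and 0.0357, and read 0.185, 0.135 and 0.119 at 36 h. On normal arrays 1 and 3 the value is the floor of the array and not a measured signal, and the fitted difference was 3.49-fold (log2 1.80 ± 0.33, adjusted p 0.000677). As miR-18a is a member through the group in which it was high, this test is not independent of its choice. miR-17-5p read 0.0494, also the floor, 0.0722 and 0.0539 in normal liver and 0.130, 0.114 and 0.119 at 36 h, a 2.09-fold rise (log2 1.07 ± 0.25, adjusted p 0.00401). The remaining members all had positive differences that did not pass in the fit without blocks. miR-20a read 0.921, 0.771 and 0.849 in normal liver and 1.66, 1.30 and 1.22 at 36 h, with no overlap (log2 0.71 ± 0.26, adjusted p 0.0576). miR-20b-5p (0.55 ± 0.20, adjusted p 0.0555) and miR-92a (0.30 ± 0.15, adjusted p 0.144) did not overlap either. For miR-19a (0.72 ± 0.31, adjusted p 0.104) the groups overlapped, and normal liver 1 stood far below the other normal arrays with 0.0619 against 0.185 and 0.175. The difference of miR-19b was 0.26 ± 0.19 (adjusted p 0.359). Over the 7 members the median was 0.71.

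The seed family of miR-15 and miR-16 divided. miR-15b, made from an intron of the chromosome condensation gene Smc4 and known to repress cyclins, read 1.18, 0.938 and 0.936 in normal liver and 2.47, 2.42 and 2.77 at 36 h. The 3 operated livers lay close together and far above normal, and the difference was 1.33 ± 0.14 (2.52-fold, adjusted p 1.57e-06). miR-195, which carries the same seed, read 1.88, 1.19 and 1.74 in normal liver and 0.971, 1.03 and 0.991 at 36 h. It fell by 0.66 ± 0.18 on the log2 scale (adjusted p 0.0114), with normal liver 2 nearest to the operated livers. miR-497, whose hairpin lies within 10 kb of that of miR-195 on the same strand in RefSeq, also had its 3 operated arrays below normal (1.31, 0.866 and 1.23 against 0.822, 0.845 and 0.806), but did not pass the test (log2 -0.44 ± 0.16, adjusted p 0.0567). miR-16 was 3.66, 2.26 and 2.76 in normal liver and 4.57, 4.29 and 3.95 at 36 h (log2 0.59 ± 0.23, adjusted p 0.0743). With miR-322 (log2 -0.27 ± 0.14, adjusted p 0.160), the family counted 1 higher, 1 lower and 3 not passing, with a median of -0.27. Over the 144 miRNAs tested 11.1% were higher and 7.64% lower. With scan day as a fixed block miR-16 (0.71 ± 0.14, adjusted p 0.00188) and miR-497 (-0.41 ± 0.13, adjusted p 0.0354) passed too, which makes 2 higher and 2 lower. That fit called 20 higher and 13 lower of the 144. Whether the family differs from the shares over all miRNAs was not tested.

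miR-34a, the p53-induced repressor of G1 cyclins and kinases, read 0.222, 0.239 and 0.234 in normal liver and 0.979, 0.663 and 0.893 at 36 h. Normal livers were almost equal and every operated liver was far above them, a 3.61-fold rise (log2 1.85 ± 0.22, adjusted p 2.40e-06). Of the other features of that family, miR-34b, miR-34c and miR-449a were not members. miR-21, which rises in many injured and proliferating tissues, read 19.7, 29.5 and 22.9 in normal liver and 46.9, 30.7 and 35.9 at 36 h. The groups nearly touched, between normal liver 2 and m39B, and the difference was 0.65 ± 0.19 (1.57-fold, adjusted p 0.0142). Its rank was the same on all 26 arrays, so that quantile normalization gives it 1 value throughout and does not test it.

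miR-7a, best known from endocrine cells, read 0.0551, 0.0907 and 0.0766 in normal liver and 0.130, 0.117 and 0.157 at 36 h (log2 0.88 ± 0.20, 1.84-fold, adjusted p 0.00360). miR-1949 read 0.0885, 0.116 and 0.0645 and then 0.263, 0.155 and 0.166 (log2 1.12 ± 0.26, 2.17-fold, adjusted p 0.00362), with m37B well above the other operated livers. miR-130a, of the miR-130 and miR-301 family, read 0.725, 0.621 and 0.592 against 0.984, 0.7495 and 0.953. Its m39B array was just above normal liver 1, and the 1.38-fold difference was the smallest among the miRNAs that rose (log2 0.47 ± 0.12, adjusted p 0.00943). Its relatives miR-130b, miR-301a and miR-301b were not members. miR-3559-5p read 0.153, 0.172 and 0.180 in normal liver and 0.248, 0.250 and 0.272 at 36 h (log2 0.61 ± 0.15, adjusted p 0.00619). miR-345-5p read 0.140, 0.159 and 0.145 and then 0.248, 0.189 and 0.227 (log2 0.57 ± 0.15, adjusted p 0.00943). The other arm of that hairpin, miR-345-3p, read 0.260, 0.230 and 0.301 against 0.611, 0.391 and 0.550, and did not pass (log2 0.96 ± 0.45, adjusted p 0.141).

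miR-200a, miR-200b and miR-429 are made from neighbouring hairpins, hold the epithelial state by repressing Zeb1 and Zeb2, and in liver mark the biliary epithelium. miR-200b read 0.177, 0.160 and 0.0813 in normal liver and 0.401, 0.355 and 0.262 at 36 h, a 2.53-fold rise (log2 1.34 ± 0.29, adjusted p 0.00247). miR-429 read 0.0637, 0.0578 and 0.0357 against 0.157, 0.143 and 0.0838 (log2 1.28 ± 0.29, adjusted p 0.00360). It was not detected in normal liver 3, where the value is the floor, and as a member only through the arrays at 36 h its test is not independent of its choice. miR-200a, at the floor on normal arrays 1 and 3, read 0.0494, 0.0649 and 0.0357 against 0.0926, 0.0979 and 0.0817 (log2 0.90 ± 0.30, adjusted p 0.0364). In all 3 miRNAs normal liver 3 was the lowest array. Of the biliary list, miR-200a and miR-200b were detected on all 6 arrays and rose, and the other defining markers, miR-200c and miR-141, were detected on none of the 6 arrays. The summed signal of the detected biliary markers, with that of miR-200b as its largest term, was 0.290, 0.283 and 0.117 in normal liver and 0.651, 0.595 and 0.427 at 36 h. The part of biliary cells in these differences was not tested.

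Both arms of the miR-378 hairpin, which lies in an intron of the metabolic coactivator gene Ppargc1b, fell. miR-378 read 0.765, 0.759 and 0.639 in normal liver and 0.357, 0.395 and 0.420 at 36 h, and fell by 0.88 ± 0.24 on the log2 scale (adjusted p 0.0114). The opposite arm, miR-378*, read 0.143, 0.145 and 0.116 against 0.0652, 0.0588 and 0.0737 and fell by 1.03 ± 0.24 (adjusted p 0.00360). The arms lay on different probes and neither overlapped between groups. For the 25 called miRNAs with another arm on the array, 22 of 28 such features were detected on none of the 6 arrays.

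miR-26a, abundant in liver and known to repress cyclins D2 and E2, read 2.69, 2.87 and 2.68 in normal liver and 1.56, 1.74 and 2.01 at 36 h. It fell by 0.64 ± 0.11 (adjusted p 0.000402), and the other family member, miR-26b, had a difference of -0.26 ± 0.11 that did not pass (adjusted p 0.0823). miR-10a-5p, encoded in a Hox cluster, read 0.794, 0.789 and 0.696 against 0.515, 0.461 and 0.524 and fell by 0.60 ± 0.10, with the smallest adjusted p of the miRNAs that fell (0.000289). miR-22, among the bright miRNAs of liver, read 13.3, 11.2 and 13.5 against 9.38, 9.16 and 9.50 and fell by 0.43 ± 0.13 (adjusted p 0.0238). miR-151, from an intron of the focal adhesion kinase gene, read 0.679, 0.611 and 0.586 against 0.375, 0.362 and 0.415 and fell by 0.70 ± 0.19 (adjusted p 0.00950). miR-338 was detected on every normal array (0.09997, 0.0864 and 0.0818) and on no array at 36 h. Against the floor of those arrays it was at least 2.09-fold lower with its probes summed (adjusted p 0.00360). With the brightest probe only, the log2 difference was -0.20 and did not pass (adjusted p 0.738), so that the bound rests on the probe summary. With the total gene signal it was lower than with the probes summed, but no size is given, since miR-338 was not detected at 36 h. miR-338 was chosen through its detection in normal liver, the group in which it was high, and its test is not independent of that choice.

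The other miRNAs that fell were miR-150, miR-181a and miR-511*, of which only miR-150 is on the leukocyte list. miR-150, a marker of mature lymphocytes, read 0.111, 0.122 and 0.121 in normal liver and 0.0684, 0.0726 and 0.0706 at 36 h, and fell by 0.74 ± 0.16 (adjusted p 0.00247). Its other arm, miR-150*, did not pass and had a positive difference (0.48 ± 0.40, adjusted p 0.454). miR-181a, known from lymphocyte development, read 0.114, 0.109 and 0.0764 against 0.0547, 0.0567 and 0.0693 and fell by 0.72 ± 0.18 (adjusted p 0.00619), and its relatives miR-181b, miR-181c and miR-181d were not members. miR-511*, encoded within the macrophage mannose receptor gene Mrc1, read 0.197, 0.150 and 0.124 against 0.0973, 0.0914 and 0.0974 and fell by 0.69 ± 0.20 (adjusted p 0.0142). Of the leukocyte list, 4 of 6 features were members: miR-150 fell, and miR-142-3p (-0.60 ± 0.27, adjusted p 0.122), miR-146a (-0.25 ± 0.19, adjusted p 0.396) and miR-223 (0.10 ± 0.23, adjusted p 0.821) did not pass. The summed signal of that list, with that of miR-146a as its largest term, was 0.983, 1.14 and 0.931 in normal liver and 0.906, 0.917 and 0.879 at 36 h, and miR-142-5p was detected on none of these arrays. The part of blood and immune cells in these differences was not tested.

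Hepatocyte markers did not pass the test. miR-122, the leading miRNA of hepatocytes, read 180, 148 and 172 in normal liver and 156, 168 and 178 at 36 h, with overlapping groups and a log2 difference of 0.01 ± 0.12 (adjusted p 0.972). The 4 hepatocyte features had no call (median -0.04), and their summed signal was 187, 157 and 180 against 164, 175 and 186. miR-126 of endothelium (-0.24 ± 0.16, adjusted p 0.3003) and miR-451 of red cells (-0.41 ± 0.40, adjusted p 0.502) had all 3 operated arrays below normal but did not pass. Their lists summed to 3.03, 2.49 and 2.55 against 2.14, 2.20 and 2.41, and to 0.487, 0.407 and 0.428 against 0.284, 0.321 and 0.395, the red cell list without miR-144, which was detected on none of the 6. The 4 detected markers of stellate cells and smooth muscle did not pass (median 0.07, summed signal 1.57, 1.32 and 1.22 against 1.28, 1.34 and 1.23, largest term miR-143, with miR-145 detected on none of the 6). All 4 markers of skeletal muscle, all 3 of pancreas and all 3 of brain were detected on none of the 6 arrays.

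**Figure D2:**
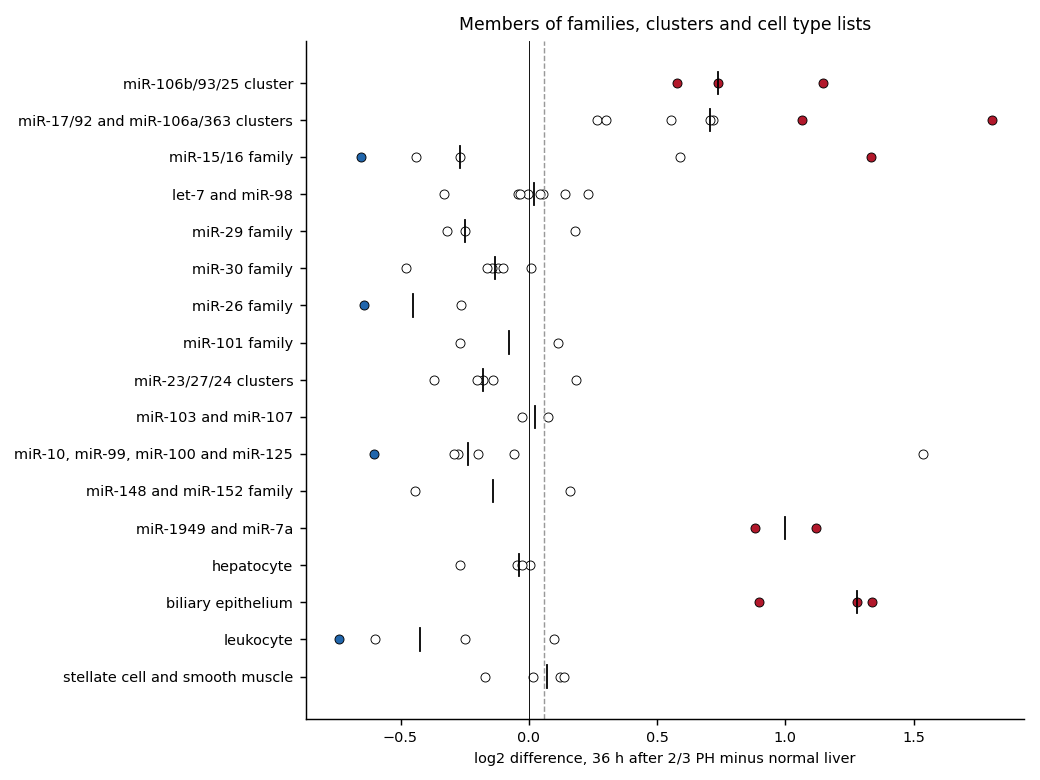
Log2 difference (36 h after 2/3 PH minus normal liver) of each member of the families, clusters and cell type lists with over 1 member, filled red where it rose and blue where it fell at an adjusted p under 0.05 and open where it did not pass. Short bars are list medians and the dashed line is the median of all 144 miRNAs tested, 0.06; the miR-106b cluster lies wholly to its right and the miR-15/16 family on both sides.

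Counts for larger families that are abundant in liver follow, beside 11.1% higher and 7.64% lower over the 144 miRNAs tested. Whether they differ from these shares was not tested. None of the 8 members of let-7 and miR-98 passed the test (median 0.02, from -0.33 for let-7e to 0.23 for miR-98), nor did the 6 of the miR-30 family (median -0.13), the 5 of the miR-23/27/24 clusters (-0.18) or the 3 of the miR-29 family (-0.25). Closest to passing among these was miR-30b-5p, with 0.541, 0.591 and 0.585 in normal liver and 0.358, 0.471 and 0.411 at 36 h (log2 -0.48 ± 0.17, adjusted p 0.0576). The pairs miR-101a and miR-101b (median -0.08), miR-103 and miR-107 (0.02) and miR-148b-3p and miR-152 (-0.14) did not pass. Of the list of miR-10, miR-99, miR-100 and miR-125, miR-10a-5p fell and 5 members did not pass (median -0.24). Medians close to 0 changed sign between settings. Without scaling and with the percentile over all probes every difference moved by the same amount, so a change of sign there says nothing about a list. Relative to the median of all miRNAs, both settings left let-7 and miR-98 at -0.04, miR-103 and miR-107 at -0.04 and the stellate list at 0.01. The median of let-7 and miR-98 was below 0 with quantile normalization (-0.01), with normexp (-0.05), with the deposited values (-0.12), with the total gene signal (-0.01) and without normal liver 2 (-0.02) or m37B (-0.01). That of miR-103 and miR-107 was below 0 with the total gene signal (-0.01) and without normal liver 3 (-0.05). The stellate list was below 0 with quantile normalization (-0.20), with the deposited values (-0.17) and without normal liver 3 (-0.05) or m37B (-0.06).

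Other lists turned to positive medians. The hepatocyte list did so without m37B (0.01) and with scan day as a fixed block (0.0002), and the miR-101 pair without normal liver 2 (0.03). With detection required on every array, 1 member of that pair was left, at 0.11. The median of miR-148b-3p and miR-152 was above 0 without normal liver 2 (0.06) or m37B (0.07). With normexp, under which the median of all miRNAs was 0.64, the medians of the hepatocyte, miR-15/16, miR-30, miR-23/27/24, miR-101, miR-148, miR-10, miR-181, miR-378, leukocyte and red cell lists were above 0. Relative to that shift, the medians of these lists were below it except for miR-148b-3p and miR-152.

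miR-221, known to favour hepatocyte proliferation, was detected on 2 of 3 normal arrays (0.0494, 0.0581 and 0.0357) and on all 3 at 36 h (0.0766, 0.0611 and 0.0783). On normal arrays 1 and 3 the value is the floor of the array and not a measured signal. The groups did not overlap on these values, and the difference did not pass (log2 0.61 ± 0.24, adjusted p 0.0744). miR-221 is a member only through the arrays at 36 h, where it was higher, so its test is not independent of its choice. Its partner miR-222 was not a member. Among the other members detected on all arrays at 36 h and on 2 normal arrays, miR-18a and miR-429 rose, miR-547 did not pass (0.96 ± 0.36, adjusted p 0.0628), and miR-674-3p, miR-466b-2*, miR-31* and miR-466b-1* overlapped between groups, with differences from -0.36 to 0.41. miR-547 was not detected on normal array 1, where its value is the floor. It was chosen through the group in which it was high, so its test is not independent of its choice either. Of the 8 detected on all normal arrays only, miR-338 fell. miR-331 and miR-455* were also detected on no array at 36 h, but their mean normal signal was not above the floor of the operated arrays, so that no fold is given. miR-702-3p, miR-128, miR-328a, miR-30b-3p and miR-96 were detected on 2 of the operated arrays and had differences from -0.21 to 0.24.

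The size of a difference alone did not decide which miRNAs passed. Of the 108 members that did not pass, 66 differed by less than 0.3 in either direction, but 8 had differences above 0.9 and 3 below -0.9. miR-139-3p had a larger difference (2.02 ± 0.98, adjusted p 0.144) than any miRNA that passed. It read 0.217, 0.0849 and 0.0687 in normal liver and 0.796, 0.264 and 0.404 at 36 h, and across all 26 arrays ran from 0.0568 to 0.796 with a median of 0.183. The standard errors of the 8, which draw on all 9 groups, were from 0.36 to 0.98. miR-743a (1.59 ± 0.66, adjusted p 0.1001), miR-125a-3p (1.54 ± 0.64, adjusted p 0.1001), miR-3562 (1.1998 ± 0.52, adjusted p 0.110), miR-878 (1.07 ± 0.52, adjusted p 0.144), miR-202* (0.99 ± 0.46, adjusted p 0.139), miR-547 and miR-345-3p made up the rest of the 8. In miR-125a-3p m37B (0.595) and m40 (0.454) were high and m39B (0.200) was close to normal liver 1 (0.158). miR-466b (-1.10 ± 0.59, adjusted p 0.196), miR-3588 (-1.04 ± 0.69, adjusted p 0.319) and miR-500 (-1.0037 ± 0.46, adjusted p 0.128) were highest on normal array 1, with 0.353, 1.24 and 0.515, and their groups overlapped.

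**Figure D3:**
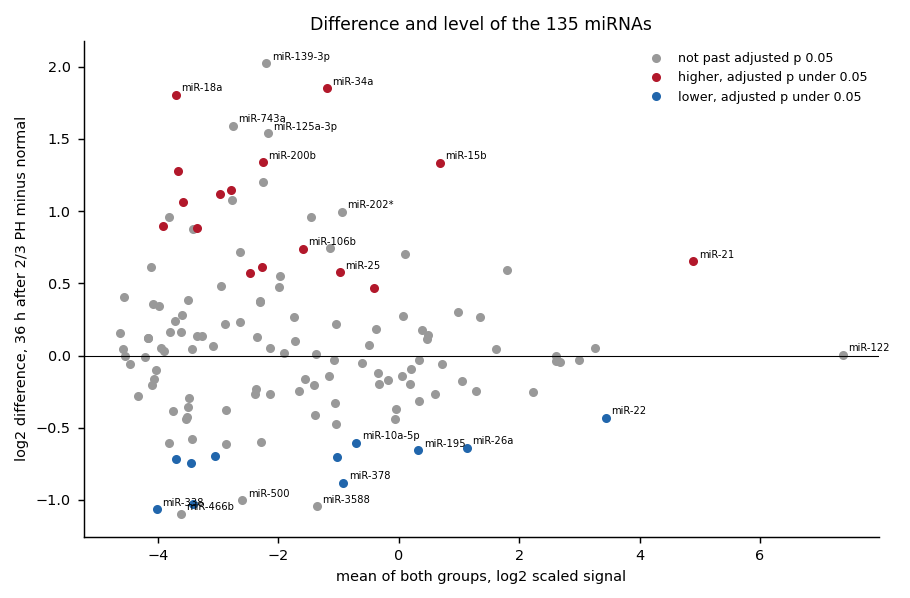
Log2 difference (36 h after 2/3 PH minus normal liver) against the mean log2 scaled signal of both groups for the 135 miRNAs, coloured by the limma test. Some grey points lie as far from 0 as coloured ones, such as miR-139-3p at 2.02 with an SE of 0.98; the horizontal axis locates each miRNA and does not rank abundance.

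Arrays were scanned on 3 days and lay on 6 slides. On scan day 2, normal liver 3, m37B and m39B shared slide 3, and on scan day 3 normal liver 2 (slide 5) and m40 (slide 6) were scanned, so that the difference can be read within a day. With scan day as a fixed block limma called 20 higher and 13 lower, and with slide as a random block 18 and 13. With slide as a fixed block, which for this comparison rests on the arrays of slide 3 and so on 1 normal array, it called 9 and 3. For miR-15b the difference was 1.38 on scan day 2 and 1.56 on scan day 3, with 1.41 ± 0.15 in the fit with scan day. miR-34a gave 1.78 and 1.90 (1.94 ± 0.22), and miR-93 1.36 and 0.96 (1.19 ± 0.14). Among miRNAs that fell, miR-10a-5p gave -0.51 and -0.59 (-0.53 ± 0.10), miR-26a -0.70 and -0.51 (-0.58 ± 0.11) and miR-378* -0.90 and -0.97 (-0.98 ± 0.25).

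Differences within the days were less even for other miRNAs. miR-200b gave 2.21 on scan day 2 and 0.70 on scan day 3, miR-429 2.07 and 0.54, miR-200a 1.42 and 0.33, miR-1949 1.65 and 0.52 and miR-195 -0.79 and -0.26. miR-511* lost its call with scan day as a fixed block (-0.56 ± 0.20, adjusted p 0.0532). That fit gained calls for miR-20a (0.80 ± 0.20, adjusted p 0.00662), miR-20b-5p (0.60 ± 0.21, adjusted p 0.0456), miR-221 (0.72 ± 0.25, adjusted p 0.0436), miR-142-3p (-0.68 ± 0.22, adjusted p 0.0354) and miR-148b-3p (-0.47 ± 0.15, adjusted p 0.0354), besides miR-16 and miR-497. As miR-221 is a member only through the arrays at 36 h, where it was higher, its test is not independent of its choice. With slide as a random block, miR-20a (adjusted p 0.0431), miR-16 (0.0376), miR-497 (0.0222) and miR-652 (0.0451) passed. The fit with slide as a fixed block sets m37B and m39B against normal liver 3 alone. Its spread comes from the other groups, so only the sizes of its differences are given here. All 27 differences kept their sign. Some were as large as in the fit without slides or larger, such as those of miR-17-5p (1.18), miR-21 (0.73), miR-150 (-0.78) and miR-200a (1.42), and others were smaller, such as those of miR-181a (-0.46) and miR-511* (-0.39).

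**Figure D4:**
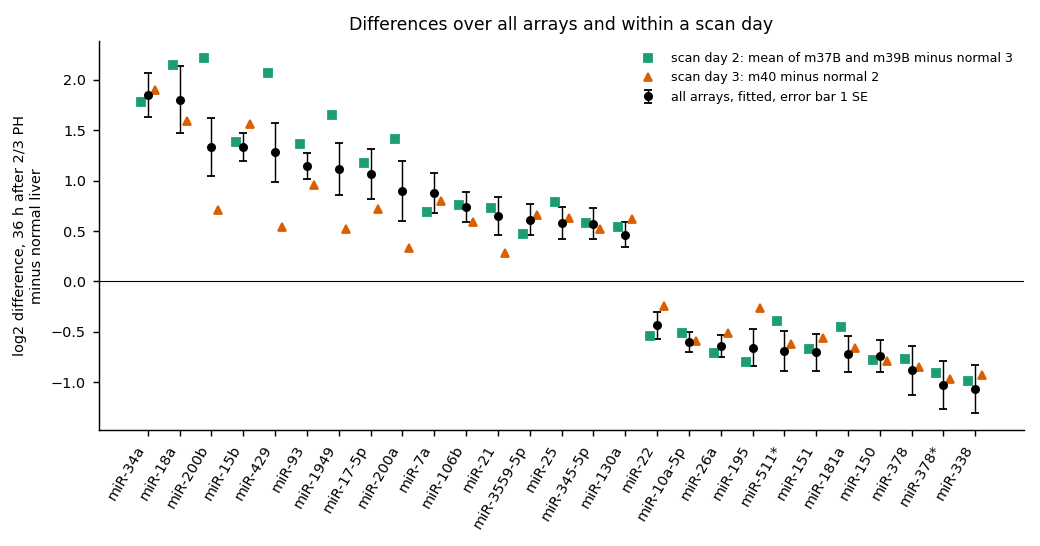
Log2 difference (36 h after 2/3 PH minus normal liver) of the 27 miRNAs that passed the test, fitted over all arrays (black, ± 1 SE), within scan day 2 (green, mean of m37B and m39B minus normal liver 3) and within scan day 3 (orange, m40 minus normal liver 2). Both days are close for miR-15b (1.38 and 1.56) and far apart for miR-200b (2.21 and 0.70).

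Leaving out each of the 6 arrays in turn left 18 of the 27 called every time. miR-200a lost its call without any 1 array but normal liver 2 (adjusted p 0.0518 to 0.150), and so did miR-22 (0.0509 to 0.0933). miR-21 lost it without normal liver 1, normal liver 3 or m37B (0.0983, 0.0548 and 0.119), miR-195 without normal liver 1 or 3 (0.0886 and 0.0609), and miR-130a without normal liver 3 or m37B (0.0548 and 0.0574). miR-25 lost it without normal liver 3 (0.0835), miR-511* without normal liver 1 (0.111), and miR-345-5p and miR-378 without m37B (0.0558 and 0.0536).

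Other settings also cost calls. With the deposited values, besides those named above, miR-17-5p (1.24, adjusted p 0.705), miR-1949 (0.88, adjusted p 0.705), miR-7a (0.70, adjusted p 0.195), miR-21 (0.47, adjusted p 0.195), miR-3559-5p (0.41, adjusted p 0.919), miR-345-5p (0.35, adjusted p 0.442), miR-22 (-0.42, adjusted p 0.103) and miR-151 (-0.67, adjusted p 0.0655) did not pass. Quantile normalization cost those of miR-1949 (0.79, adjusted p 0.0938), miR-200a (0.62, adjusted p 0.143), miR-3559-5p (0.34, adjusted p 0.488), miR-345-5p (0.30, adjusted p 0.272) and miR-511* (-0.81, adjusted p 0.0837). The total gene signal cost those of miR-3559-5p (0.65, adjusted p 0.456), miR-200a (0.87, adjusted p 0.0974), miR-150 (-0.73, adjusted p 0.0720) and miR-181a (-0.78, adjusted p 0.0525). miR-200a did not pass with the brightest probe only (0.73, adjusted p 0.0636), nor miR-3559-5p (adjusted p 0.141) and miR-150 (adjusted p 0.147) with a floor of 1 signal unit. A fit of only the 6 arrays left out miR-130a (adjusted p 0.0841), miR-21 (0.0781), miR-22 (0.0546) and miR-195 (0.0546).

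How late the changes came was asked by setting 36 h against 24 h after the same operation, which needs no normal liver. limma called 1 of 144 miRNAs (0.694%), miR-15b, with 11 at an unadjusted p under 0.05. miR-15b was higher at 36 h by 0.82 ± 0.14 (adjusted p 0.00183), with geometric means of 1.45 at 24 h and 2.55 at 36 h. Next to it was miR-7a, with 0.0787 and 0.134, which did not pass (0.77 ± 0.20, adjusted p 0.0764). The difference between the times did not pass for miR-93 (0.18 ± 0.13, adjusted p 0.609), and was smaller than its error for miR-17-5p (-0.02 ± 0.25, adjusted p 0.987), miR-21 (0.05 ± 0.19, adjusted p 0.964) and miR-378* (-0.04 ± 0.24, adjusted p 0.965). These arrays lay on different slides and scan days (24 h on slide 2, scan day 1), and no scan day holds both groups. In the fit with scan day as a fixed block limma called 1.

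Values at earlier times, which share the normal livers, are set side by side as log2 differences from normal. After 2/3 PH, miR-93 was at -0.12, -0.01, 0.96 and 1.15 at 6, 12, 24 and 36 h, and miR-106b at -0.45, -0.22, 0.56 and 0.74. miR-34a was at 0.10, 0.47, 1.24 and 1.85, and miR-15b at 0.15, 0.40, 0.52 and 1.33. Among those that fell, miR-26a was at 0.00, -0.02, -0.47 and -0.64, miR-10a-5p at 0.15, -0.15, -0.40 and -0.60, and miR-378 at 0.25, -0.75, -0.74 and -0.88. miR-7a stayed between -0.07 and 0.24 until 24 h and was at 0.88 at 36 h.

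The extent of the resection was compared at 36 h, 2/3 PH against 1/3 PH, again without the normal livers but with the same arrays at 36 h after 2/3 PH. limma called 22 of 144 miRNAs (15.3%), 15 higher and 7 lower after 2/3 PH, with 34 at an unadjusted p under 0.05. miR-15b had a geometric mean of 1.01 after 1/3 PH and 2.55 after 2/3 PH (1.33 ± 0.14, adjusted p 1.62e-06), and miR-93 of 0.0974 and 0.217 (1.16 ± 0.13, adjusted p 1.82e-06). The other members of the cluster differed too, miR-106b by 0.57 ± 0.15 (adjusted p 0.0174) and miR-25 by 0.58 ± 0.16 (adjusted p 0.0186). miR-34a (1.15 ± 0.22, adjusted p 0.00173), miR-1949 (1.23 ± 0.26, adjusted p 0.00386) and miR-7a (0.92 ± 0.20, adjusted p 0.00412) were higher after 2/3 PH, and miR-26a (-0.55 ± 0.11, adjusted p 0.00333) and miR-10a-5p (-0.46 ± 0.10, adjusted p 0.00412) lower.

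For other miRNAs the difference between the operations did not pass. miR-378 was at 0.5004 after 1/3 PH and 0.390 after 2/3 PH (-0.36 ± 0.24, adjusted p 0.464), miR-378* at 0.0965 and 0.0656 (-0.56 ± 0.24, adjusted p 0.144) and miR-150 at 0.0834 and 0.0705 (-0.24 ± 0.16, adjusted p 0.451). After 1/3 PH, array m45B stood far below m46 and m47 for miR-378 (0.2888 against 0.655 and 0.6625). The same array was lowest for miR-378* (0.0684 against 0.112 and 0.117). miR-21 (0.48 ± 0.19, adjusted p 0.104) and miR-200a (0.26 ± 0.30, adjusted p 0.578) did not pass either. miR-200b, from a hairpin next to that of miR-200a, did pass (0.90 ± 0.29, adjusted p 0.0413). It lost its call with slide as a random block (adjusted p 0.0868) and with scan day as a fixed block (adjusted p 0.116). All arrays at 36 h after 1/3 PH lay on slide 2 and scan day 1, which held none of those after 2/3 PH. With slide as a random block limma called 7 higher and 2 lower, and with scan day as a fixed block 13 and 0. In the fit with scan day the calls of miR-26a (-0.42 ± 0.14, adjusted p 0.0782), miR-10a-5p (-0.29 ± 0.12, adjusted p 0.189) and miR-7a (0.79 ± 0.25, adjusted p 0.0603) were lost, and with slide as a random block that of miR-106b (0.56 ± 0.17, adjusted p 0.0567). In the fit without blocks limma called 7 miRNAs in all without m37B, 8 without m47 and 11 without m46.

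**Figure D5:**
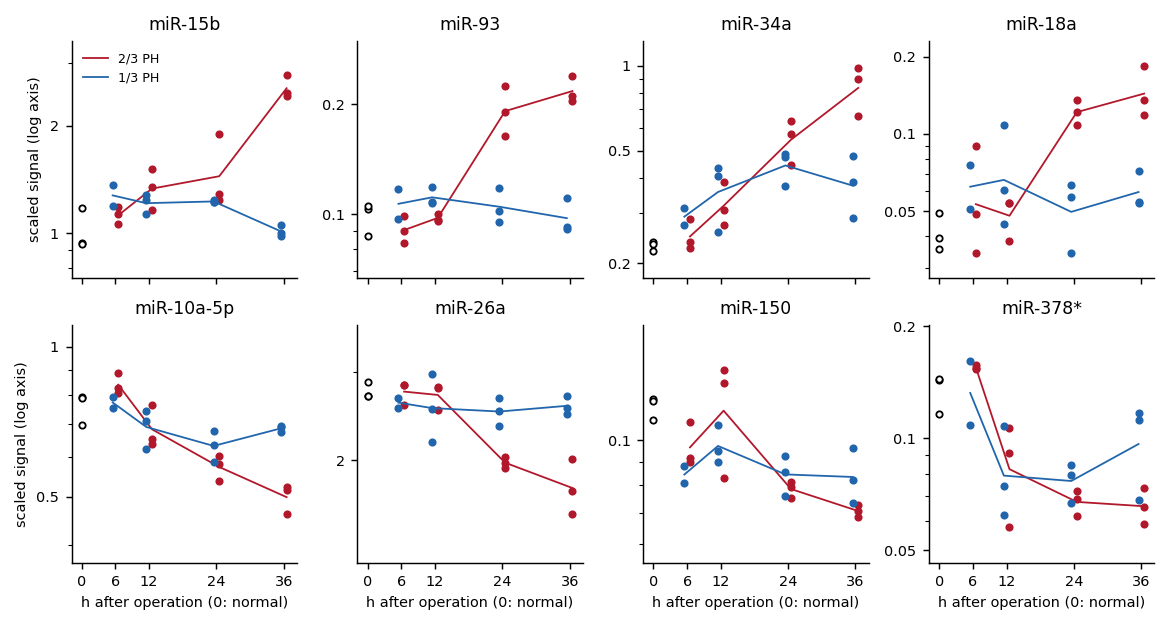
Scaled signal (log axis) of the 4 miRNAs with the smallest adjusted p that rose (top) and fell (bottom) by hours after the operation, with normal liver at 0, 1 point per array and lines through the geometric means (red, 2/3 PH; blue, 1/3 PH). miR-15b after 2/3 PH goes from a mean of 1.45 at 24 h to 2.55 at 36 h, while after 1/3 PH it is at 1.01 at 36 h.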

How the data were processed

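The authors scanned single-colour (Cy3) Agilent rat miRNA arrays and, per the file headers, extracted background-subtracted intensity values with Feature Extraction 10.7.3.1. They also deposited a table of log2 values normalized between arrays by a method not given in the sources used here; it served as an alternative. Groups follow the sample titles. Members and lists were chosen with earlier results of these data known. Named miRNAs are the members with an adjusted p under 0.05 and the members of those lists.

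Outlier spots were left out, spots averaged per probe and the probes of a miRNA summed (677 miRNAs, 1644 probes). Scaling used, for each array, the 75th percentile of 109 probes that exceeded background clearly everywhere (26 arrays); values below the lowest well measured probe were set to it, the floor, and log2 was taken. Between 135 and 152 miRNAs were detected on the 6 arrays compared; no spot was saturated, and precision is limited by the number of arrays. limma 3.58.1 (R 4.3.3, lmFit and eBayes) fitted 26 arrays in 9 groups to the 144 miRNAs with detection throughout at least 1 group (17 residual and 2.32 prior degrees of freedom), with Benjamini-Hochberg adjustment. A miRNA detected on no array of a group was given as a bound: the mean of the bright group against that of, per array, the higher of floor and signal. Python 3.11.15, numpy 2.4.6, pandas 2.3.3 and matplotlib 3.10.9 made tables and plots. Alternatives were other scalings, normexp (offset 50), probe summaries, detection filters, floors, slide or scan day as blocks, and leaving out arrays.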

Additional observations from a re-analysis of the deposited data

Results flagged for a closer look

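miR-15b differed between 36 h and 24 h after the same operation by 0.82 on the log2 scale (0.8188, SE 0.14, limma adjusted p 0.00183; n = 3 arrays each): against normal liver it was 0.52 higher at 24 h and 1.33 higher at 36 h. It was singled out because the test of the difference between the times passed. The value ranged from 0.61 to 1.19 over the alternatives, and the call was lost without scaling (adjusted p 0.986), with the percentile over all probes (0.486), with normexp (0.0750) and in a fit of only the arrays compared (0.201).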

How the results depend on the processing

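Against the 16 miRNAs called higher and 11 lower, limma called 1 and 0 without scaling (16 at an unadjusted p under 0.05), 0 and 0 with the percentile over all probes (15), 2 and 1 with normexp, and 9 and 3 with slide as a fixed block; the deposited values gave 5 higher. Leaving out single arrays gave 12 to 19 higher and 8 to 15 lower. Against 1 miRNA between 36 h and 24 h, limma called 0 without scaling (0 at an unadjusted p under 0.05), with the percentile over all probes (13), with normexp (5) and with only the arrays compared (18), 2 with the deposited values and with detection on every array, 3 with the software's total gene signal and 4 with quantile normalization; leaving out arrays gave 1 to 2 (2 without m39B). Against 22 between the operations, it called 0 without scaling (8), 1 with normexp, 5 with the percentile over all probes, 9 with slide as a random block, 10 with the deposited values and 13 with scan day as a block; leaving out arrays gave 7 to 22. The cause was not tested. Slide as a fixed block was not estimable for the last pair of comparisons. No paired analysis was possible because the groups share no replicate numbers.

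Over 15 alternatives other than leaving out arrays compared, 265 of 394 values of the 27 named miRNAs kept direction and call, 121 lost the call without turning (for miR-21 with quantile normalization the value is 0 by construction) and 8 turned, all with normexp, which moved the median of all miRNAs to 0.64: miR-10a-5p 0.0534, miR-150 0.60, miR-151 0.12, miR-181a 0.63, miR-338 0.60, miR-378 0.0146, miR-378* 0.55 and miR-511* 0.56, all below that median. Of the miRNAs that rose, miR-130a (0.51) and miR-21 (0.60) also lay below that median with normexp. None of the 27 was called under all 15. Signal over background limits dim miRNAs, since 4 of the 27 were at the floor on some normal array.

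Further alternatives were chosen after seeing the data. The total gene signal was first scaled by its own 75th percentile over the miRNAs tested, giving 17 higher, 18 lower, 2 between the times and 18 between the operations; after these counts were seen it was given the array factors of the other settings, which gave 15, 13, 3 and 19. Without 1/3PH 12H replicate m5m, the array of lowest total signal, the counts were 20, 15, 2 and 22.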
